A study of Capra hircus with 6 samples.

Results

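CCDC85B and the AP-1 transcription factors FOSL1, FOSL2, FOS, FOSB, JUN, JUNB and JUND were examined in intramuscular preadipocytes of goats, precursors of the fat cells that sit between muscle fibres. The genes were taken by name from the deposited expression table, which held 7 of the 8 names among its 27271 genes. They were CCDC85B (ENSCHIG00000001753), FOSL1 (ENSCHIG00000022890), FOSL2 (ENSCHIG00000010332), FOS (ENSCHIG00000025384), FOSB (ENSCHIG00000003296), JUN (ENSCHIG00000004093) and JUNB (ENSCHIG00000007846). No row carried the name JUND, and JUND was not analysed here. CCDC85B had been chosen by its measured difference between the groups in these same libraries, which was among the strongest, so its change is described here without a test. FOSL1 was added because it lies next to CCDC85B in the genome, and the other genes were added as its relatives.

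The cells were primary cells from the longissimus dorsi muscle of 3-day-old Jianzhou goats. The NC groups (n = 3) received a negative control interfering RNA and the Si-LIPG groups (n = 3) received an interfering RNA against LIPG, which encodes endothelial lipase. All cells were wild type, and after transfection both were kept for 48 h in a medium with 50 μmol/L oleic acid that induces fat differentiation. The study's methods speak of biological replicates, but the labels do not say whether the cultures came from separate animals, so that p values measure the spread between these libraries, which may be technical. LIPG itself was counted 0, 2 and 0 times in the NC libraries, against 0, 2 and 2 times with Si-LIPG.

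AP-1 is a transcription factor made of pairs of proteins. A JUN protein (JUN, JUNB or JUND) binds DNA together with a FOS protein (FOS, FOSB, FOSL1 or FOSL2) or with another JUN protein, and the pair acts on genes for growth, matrix breakdown and inflammation. FOS, FOSB, JUN and JUNB are immediate early genes that serum and MAP kinases switch on within a short time, whereas FOSL1, also called FRA-1, and FOSL2, also called FRA-2, respond more slowly and last longer. In fat cells, members of the family take part in the control of differentiation. CCDC85B, also called delta-interacting protein A, is a small coiled-coil protein that represses transcription and has been described as a partner of C/EBPβ, a factor that starts adipocyte differentiation.

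The libraries were shallow on genes and unequal. Between 524776 and 703680 reads were counted on genes in the NC libraries and between 864882 and 1051230 in the Si-LIPG libraries, which was 0.997% to 1.53% and 1.80% to 2.88% of all reads that the files account for. This share therefore moved with the groups. Between 97.1% and 99.0% of a library's reads were assigned to no gene by the counting, most of them as reads without a feature (91.6% to 93.7% of all reads). The library protocol marks strand, but the strand setting of the counting is not given in the sources used here. ND6, the mitochondrial protein gene that lies on the other strand than the remaining 12, had between 22.6 and 99.3 times their median count per kb, with each of the NC libraries above each of the Si-LIPG libraries. The levels below are those of reads counted under each gene's name. Whether these reads came from the gene's own strand was not tested. Of the preadipocyte or fibroblast markers 12 of 13 had counts, with a summed FPKM of 3713 to 7955 in the NC and 11040 to 11947 in the Si-LIPG libraries, but DLK1 was at 0 in every library. The 6 adipocyte markers summed to between 12.5 and 39.0 FPKM with ADIPOQ counted only in Si-LIPG 2 and LEP only in Si-LIPG 3, the muscle markers to between 46.5 and 74.2 in the NC and between 83.4 and 94.4 in the Si-LIPG libraries, the immune markers to at most 32.6 with PTPRC at 0, and the endothelial markers to at most 2.87 with CDH5, KDR and TEK at 0. In FPKM the median of all genes tested below was also higher with Si-LIPG, by 0.76 on the scale of log2(FPKM + 1). With TMM normalization, as used below, 9 of the 12 preadipocyte or fibroblast markers tested were higher and 3 lower. The part of these differences in the results below was not tested.

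CCDC85B was by far the most counted of the genes and was lower in the libraries labelled Si-LIPG on every scale used. This direction, like each other direction given here, holds for the libraries as labelled. LIPG has too few counts to check the labels. The study's text gives CCDC85B as upregulated, which is opposite to its direction by these labels. The cause of this difference was not tested and could not be settled from the sources used here. The counts of CCDC85B in replicates 1, 2 and 3 were 949, 815 and 637 with NC, against 513, 388 and 328 with Si-LIPG, although the Si-LIPG libraries held more counted reads. Each NC library was above each Si-LIPG library, also in FPKM, where 8.35% of all genes tested were lower without overlap. As FPKM, which sets counts against the length of the gene and the library's counted reads, CCDC85B was at 2969, 2223 and 1486 in the NC libraries, against 974.0, 648 and 512 with Si-LIPG, a mean of 2226 ± 742 (SD, n = 3) against 712 ± 237 (SD, n = 3). Its share of the counted reads ranged from 0.0905% (95% Wilson interval 0.0838% to 0.0978%) to 0.181% (0.1697% to 0.193%) in the NC libraries, and from 0.0312% (0.0280% to 0.0348%) to 0.0593% (0.0544% to 0.0647%) in the Si-LIPG libraries. These intervals cover counting error only. By FPKM it ranked 31, 36 and 51 among all genes in the NC libraries, against 73, 101 and 148 with Si-LIPG.

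FOSL1, the gene beside it, had few counts, and its FPKM and TMM-normalized levels overlapped between the groups. Its counts were 14, 17 and 10 in the NC libraries, against 20, 27 and 28 with Si-LIPG. Its FPKM was 32.7, 34.6 and 17.4 in the NC libraries, against 28.3, 33.7 and 32.6 with Si-LIPG, means of 28.2 ± 9.42 (SD, n = 3) and 31.6 ± 2.83 (SD, n = 3). NC 3 was the lowest library and NC 2 the highest. In TMM-normalized CPM, which corrects the libraries for differences in makeup, FOSL1 had 45.4, 30.6 and 15.8 against 22.6, 22.0 and 20.5, and CCDC85B had 3077, 1468 and 1004 against 579, 316 and 240. The ratio of CCDC85B to FOSL1 within a library does not depend on how libraries are scaled to each other. On FPKM it was 90.8, 64.2 and 85.4 in the NC libraries, against 34.4, 19.3 and 15.7 with Si-LIPG. In each library CCDC85B was far above its neighbour per length, and the ratio was lower by 1.86 on the log2 scale in the Si-LIPG libraries (means 6.31 ± 0.27 and 4.45 ± 0.59, SD, n = 3). This difference rests on CCDC85B, which was chosen for its change, and gets no test.

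**Figure D1:**
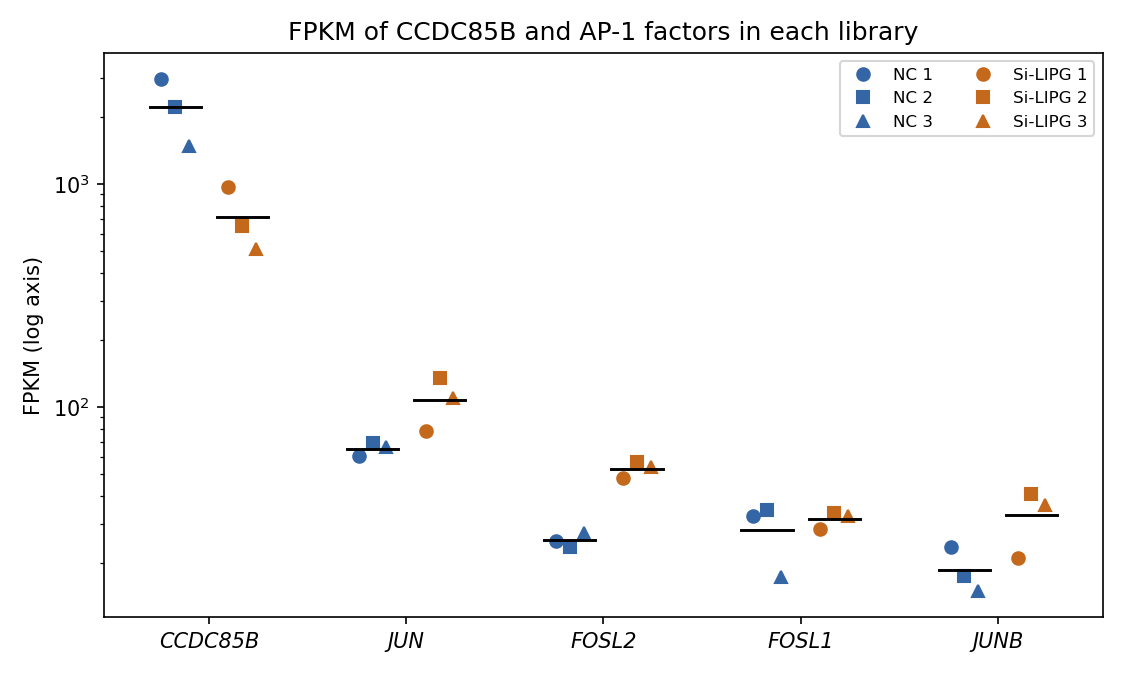
FPKM (log axis) of CCDC85B and of the AP-1 factors with at least 10 counts in every library, with 1 point per library (blue NC, orange Si-LIPG) and a black line at each group mean. CCDC85B lies between 512 and 2969 with the NC libraries on top, whereas the 4 AP-1 factors lie between 15.0 and 135.

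Of the other FOS proteins, FOSL2 was close to FOSL1 in the NC libraries and above it in the Si-LIPG libraries. FOSL2 was counted 13, 14 and 19 times in the NC libraries, against 41, 55 and 56 times with Si-LIPG. Its FPKM was 25.2, 23.6 and 27.4 against 48.2, 56.9 and 54.1, means of 25.4 ± 1.91 (SD, n = 3) and 53.1 ± 4.46 (SD, n = 3), with no overlap. In FPKM, 30.2% of all genes tested were likewise higher without overlap. FOS was counted 0, 7 and 3 times in the NC libraries, against 2, 12 and 19 times with Si-LIPG. These groups overlapped, and FOS did not pass the filter on low counts of the edgeR test. FOSB was counted once, in Si-LIPG 2, and was at 0 in the other libraries, where a count of 0 allows up to 3 counts (a CPM of 2.85 to 5.72 over the counted reads).

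JUN was the most abundant AP-1 factor per length in every library. It was counted 32, 42 and 47 times in the NC libraries, against 68, 134 and 117 times with Si-LIPG. Its FPKM was 60.5, 69.2 and 66.3 against 78.0, 135 and 110, means of 65.3 ± 4.44 (SD, n = 3) and 108 ± 28.7 (SD, n = 3), again without overlap, as for 30.2% of all genes tested. JUNB, a JUN protein that acts more weakly than JUN on many sites, was counted 13, 11 and 11 times in the NC libraries, against 19, 42 and 40 times with Si-LIPG. Its FPKM was 23.7, 17.5 and 15.0 against 21.0, 40.9 and 36.4, and Si-LIPG 1 lay below NC 1.

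Ordered by mean FPKM, the NC groups had CCDC85B, JUN, FOSL1, FOSL2, JUNB, FOS and FOSB, and the ranges of FOSL1, FOSL2 and JUNB overlapped from each gene to the next, as did those of FOS and FOSB. The Si-LIPG groups had CCDC85B, JUN, FOSL2, JUNB, FOSL1, FOS and FOSB, where JUNB and FOSL1 overlapped. The lengths behind the FPKM values were 609 bases for CCDC85B, 816 for FOSL1, 984 for FOSL2, 1008 for JUN and 1044 for JUNB, all multiples of 3 as coding lengths are, whereas FOS had 2170 and FOSB 3362. Reads outside the counted length would be missing from a gene's value, so a level between genes with and without UTRs in their models is compared with that limit.

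Seen as shares of their summed FPKM, the AP-1 factors overlapped between the groups. JUN made up 42.6%, 46.0% and 51.7% in the NC libraries, against 44.2%, 49.6% and 45.6% with Si-LIPG. FOSL1 made up 23.0%, 23.0% and 13.6% in the NC libraries, against 16.0%, 12.3% and 13.5% with Si-LIPG, so that NC 3 lay among the Si-LIPG libraries. FOSL2 made up 17.7%, 15.7% and 21.4% against 27.3%, 20.9% and 22.4%, and NC 3 was above Si-LIPG 2. The groups overlapped for each of the 6 factors found.

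**Figure D2:**
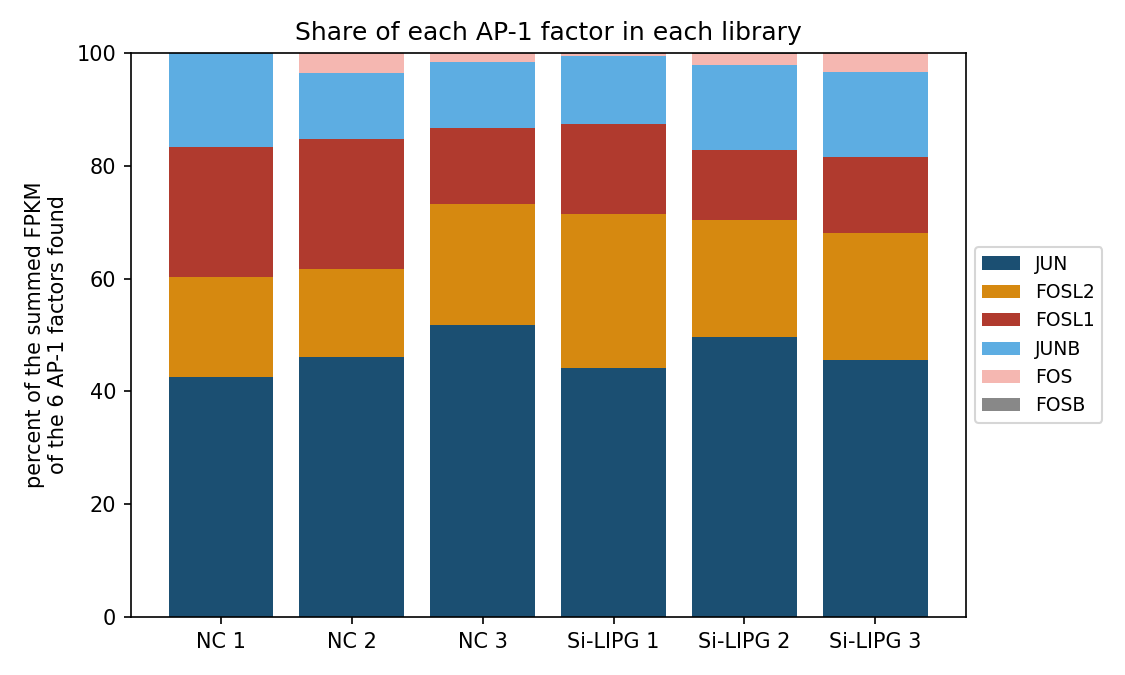
Stacked bars give the percent of the summed FPKM of the 6 AP-1 factors found, 1 bar per library. JUN is the largest part of each bar (42.6% to 51.7%), and FOSL1 takes 12.3% to 23.0%.

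Ratios of FOSL1 to the other AP-1 factors were tested within libraries, for the 3 partners with at least 10 counts in every library. The ratio of FOSL1 to FOSL2 was 1.299, 1.46 and 0.635 in the NC libraries, against 0.588, 0.592 and 0.603 with Si-LIPG. The groups did not overlap, but NC 3 lay next to the Si-LIPG libraries, and the difference was -0.84 on the log2 scale (p = 0.1 in a two-sided exact permutation test, which for 3 against 3 libraries is the lowest it can reach, adjusted p = 0.3). The log2 ratio of FOSL1 to JUN differed by -0.47 (p = 0.3, adjusted p = 0.3 in the same exact permutation test) and that of FOSL1 to JUNB by -0.56 (p = 0.2, adjusted p = 0.3 in the same exact permutation test), and the groups overlapped for both. A design of this size cannot pass a threshold of 0.05.

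**Figure D3:**
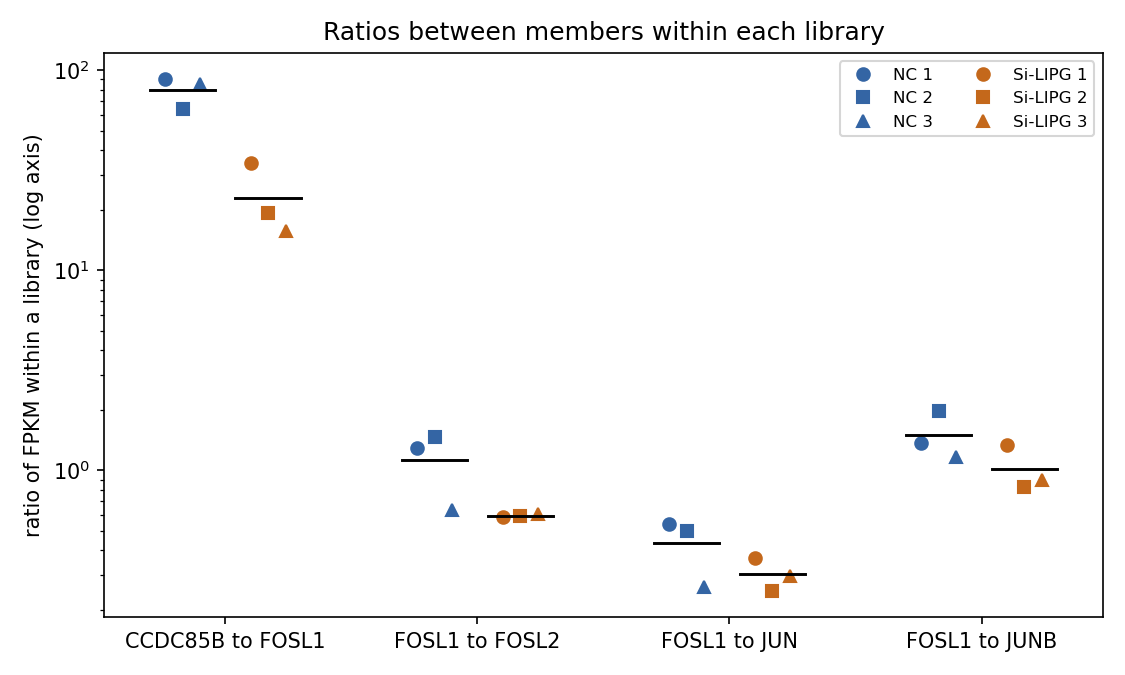
Ratios of FPKM between genes of the same library (log axis), with 1 point per library and a black line at each group mean. The ratio of CCDC85B to FOSL1 is 64.2 to 90.8 in the NC libraries and 15.7 to 34.4 in the Si-LIPG libraries, whereas the ratios of FOSL1 to FOSL2, JUN and JUNB stay between 0.249 and 1.98.

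The groups were compared over the 6574 genes that passed a filter on low counts, by the quasi-likelihood test of edgeR with TMM normalization, which scales libraries as if most genes do not change. CCDC85B and 4 AP-1 factors passed this filter, and FOS and FOSB did not. None of the 4 had an adjusted p under 0.05, against 6.51% of all genes tested, and 0 had an unadjusted p under 0.05. DESeq2, which tested all 6 factors found, also gave 0 and 0. The log2 fold change (Si-LIPG over NC) was -0.45 for FOSL1 (standard error 0.58, adjusted p = 0.724), 0.46 for FOSL2 (standard error 0.45, adjusted p = 0.63), 0.11 for JUN (standard error 0.35, adjusted p = 0.896) and 0.16 for JUNB (standard error 0.57, adjusted p = 0.912) in the edgeR fit. The errors were wide, so that changes of the size of the standard errors were not detectable at these counts. In TMM-normalized CPM the groups overlapped for each of the 4 factors, where 28.7% of all genes tested had no overlap. For CCDC85B the same fit gave a log2 fold change of -2.29 (standard error 0.45), and 0.624% of the genes tested had a lower value.

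The scale decided the sign of the change of FOSL1, while the distance of each gene to the median of all genes moved little. The median log2 fold change of all tested genes was 0.16 with TMM factors, 0.74 when only library sizes were used and 1.58 relative to all sequenced reads. CCDC85B had -2.29, -1.62 and -0.76 on these scales, and its distance to the respective median was -2.45, -2.36 and -2.35. FOSL1 had -0.45, 0.19 and 1.10, with distances of -0.61, -0.55 and -0.48. JUN lay at -0.05, 0.01 and 0.06 from the median, and FOSL2 at 0.30, 0.34 and 0.37. JUNB lay at the median after TMM normalization and 0.10 and 0.21 above it on the other scales. In FPKM, which has no TMM scaling, FOSL2 and JUN were higher without overlap, as were 30.2% of all genes tested. As CPM over all reads, FOSL1 (0.266, 0.399 and 0.217 against 0.416, 0.723 and 0.768), FOSL2, JUN and JUNB were all higher without overlap, as were 51.9% of all genes tested. CCDC85B was lower on that scale, with 18.0, 19.1 and 13.8 against 10.7, 10.4 and 8.998, as were 1.17% of the genes tested. In these bulk samples, fewer cells with a transcript and less of it per cell cannot be told apart.

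**Figure D4:**
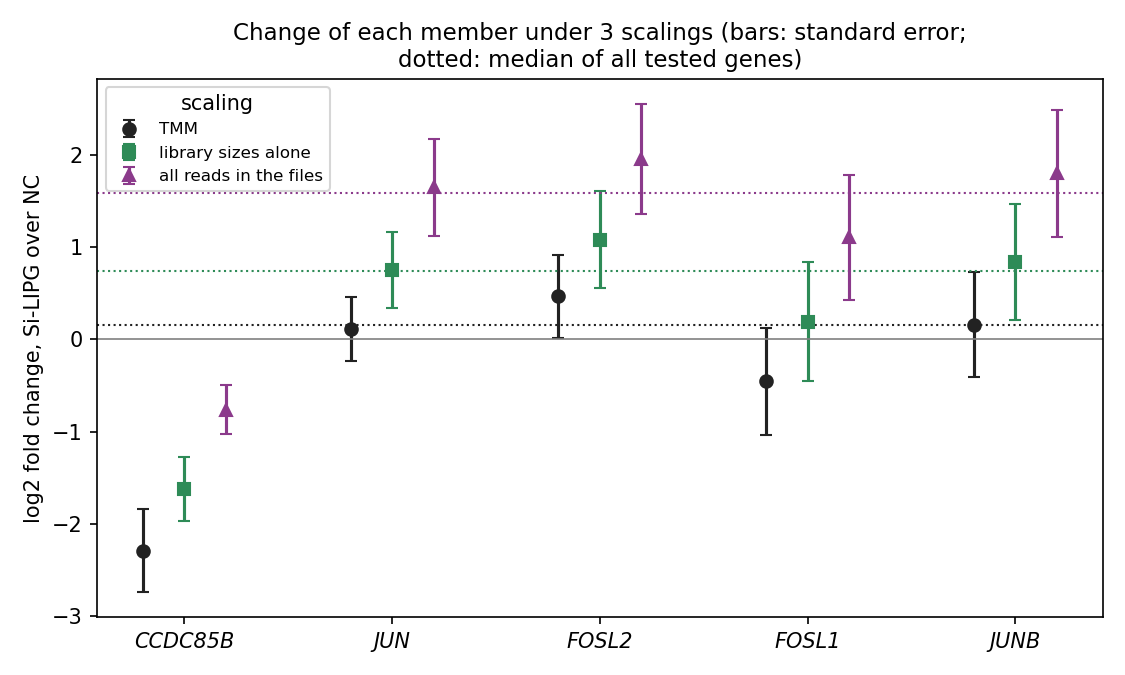
Fitted change of each gene in Si-LIPG over NC (log2) under 3 scalings, with bars for the standard error of the edgeR fit and dotted lines at the median of all tested genes on each scale (0.16, 0.74 and 1.58). CCDC85B stays far below each median, and the 4 AP-1 factors lie between -0.61 and 0.37 from it.

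The genes around these factors were taken from 5 lists, of which 4 hold the dimer partners, upstream kinases, targets and coregulated genes of AP-1 and 1 holds the relatives and described partners of CCDC85B. Of the 104 listed genes 101 were in the table and 57 passed the count filter, among which DUSP6 had an adjusted p under 0.05 in the edgeR fit. DUSP6 passed that filter only through the Si-LIPG libraries, where it was high. This favours a difference, so its call says nothing about the lists as a whole. DESeq2, which gave a p for 93 listed genes, called DUSP6 (adjusted p = 0.0158) and CCN2 (adjusted p = 0.0440), both higher. Over all 14848 genes fitted, DESeq2 called 595, of which 88 were higher and 507 lower. The median log2 fold change of the 57 was 0.18, against 0.16 over all genes tested. At the study's criterion, a fold change over 1.5 with an unadjusted p under 0.05, were 7 of the 57 (5 higher and 2 lower), where 20.7% of all genes tested met it (7.83% higher and 12.9% lower). Those of the 7 that are named below without an adjusted p under 0.05, and the matrix proteases, CEBPB and the paralogs of CCDC85B below, were named after their values had been seen.

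Among the dimer partners, 7 of 18 genes were tested and 0 met either criterion with edgeR (median log2 fold change -0.17). ATF3, a stress-induced partner of JUN, was at 0 in all NC libraries and was counted 8, 14 and 9 times in the Si-LIPG libraries, and did not pass the filter of the edgeR test. It was named after its values were seen. Among the kinases upstream of AP-1, 11 of 22 were tested, with a median of 0.34, 9 above 0 and 2 below. MAP2K1, the MEK1 kinase that activates ERK, met the study's criterion at -0.93 ± 0.37 (log2 fold change and standard error, edgeR adjusted p = 0.15). Its value relative to all reads was 0.66, below the median of 1.58 of all genes tested on that scale. Without NC 1 it was -0.46, and without NC 1, Si-LIPG 2 or Si-LIPG 3 it no longer met the criterion. Its TMM-normalized CPM was 538, 214 and 266 in the NC libraries, against 210, 165 and 157 with Si-LIPG.

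Among the AP-1 targets, 17 of 29 were tested, with a median of 0.32, and 0 had an adjusted p under 0.05 from edgeR. SPP1, the matrix protein osteopontin, had a TMM-normalized CPM of 201, 196 and 229 in the NC libraries, against 371, 414 and 335 with Si-LIPG (log2 fold change 0.84 ± 0.29, edgeR adjusted p = 0.104). These groups did not overlap, and 15.2% of all genes tested were higher without overlap on this scale. SPP1 met the study's criterion, but not without Si-LIPG 2. Of the matrix proteases, MMP2, which cuts collagen fragments, had 457, 575 and 583 against 733, 687 and 728, without overlap (0.41, standard error 0.30, adjusted p = 0.484 from edgeR). MMP3 was counted 0, 0 and 6 times in the NC libraries, against 1, 3 and 4 times with Si-LIPG, and MMP1, MMP9 and MMP13 were not counted in any library.

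Among the genes of the serum response, 16 of 26 were tested, with a median of 0.14. DUSP6, a phosphatase that switches off ERK and is itself induced by ERK signaling, was counted 0, 0 and 2 times in the NC libraries, against 16, 27 and 61 times with Si-LIPG. All Si-LIPG libraries were above all NC libraries. DUSP6 passed the filter on low counts only through the group where it is high, which favours a difference among the genes tested, and 0.974% of all genes tested were called higher. The ratio of its summed counts after TMM scaling was 22.0 (95% exact counting interval 5.94 to 184), and edgeR gave an adjusted p of 0.0400 with a log2 fold change of 4.31 (standard error 1.06) that depends on the prior count. The log2 fold change ran from 3.12 to 7.63 over the alternatives, and 7.63 was the value without NC 3, the NC library that held both counts. Over the alternatives tried its adjusted p ran from 0.00523 to 0.285. Leaving out NC 1, NC 2, Si-LIPG 2 or Si-LIPG 3 ended the call, with adjusted p values of 0.0848, 0.0693, 0.24 and 0.285. The other genes at the study's criterion were DUSP1, a phosphatase of the same family (1.24, standard error 0.50, adjusted p = 0.164 from edgeR), and CCN2, a secreted matrix protein (0.83, standard error 0.30, adjusted p = 0.113 from edgeR). DESeq2 gave CCN2 about the same log2 fold change (0.83). DUSP1 no longer met the criterion without NC 3, Si-LIPG 2 or Si-LIPG 3, and CCN2 no longer met it without NC 2 or Si-LIPG 3. DUSP1 overlapped between the groups, since Si-LIPG 1 with a TMM-normalized CPM of 31.6 lay below NC 1 and NC 2 with 38.9 and 39.6.

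Of the relatives and described partners of CCDC85B, 6 of 9 genes were tested and 0 had an adjusted p under 0.05 from edgeR. The paralogs CCDC85A and CCDC85C had almost no counts: CCDC85A was counted only in Si-LIPG 2 and CCDC85C only in Si-LIPG 3. CEBPB, which encodes C/EBPβ, had a TMM-normalized CPM of 74.6, 16.2 and 20.5 in the NC libraries, against 18.1, 28.5 and 23.4 with Si-LIPG, and the groups overlapped. CEBPD, its relative C/EBPδ, met the study's criterion at -0.92 ± 0.42 (log2 fold change and standard error, edgeR adjusted p = 0.229). The value of CEBPD relative to all reads was 0.71, where the median of all genes tested was 1.58. Without NC 1 it was -0.37, and it did not meet the criterion with DESeq2 or without NC 1 or any 1 of the Si-LIPG libraries.

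The surroundings of CCDC85B were read from the RefSeq gene table of the goat assembly ARS1.2, by the order of genes alone, since the genome build of the files is not given in the sources used here. FIBP and CTSW precede CCDC85B in that order, and FOSL1 and C29H11orf68 follow it. Of the 20 genes on both sides 15 were found in the files by name and 8 were tested, 5 with a lower and 3 with a higher log2 fold change in the Si-LIPG libraries (median -0.36). FIBP, a protein that binds a fibroblast growth factor, had an FPKM of 5.10, 7.78 and 7.13 in the NC libraries, against 10.8, 10.9 and 19.1 with Si-LIPG (log2 fold change 0.45 ± 0.51, edgeR adjusted p = 0.691). CTSW, a protease known from killer lymphocytes, had 59.1, 60.4 and 69.3 against 35.9, 37.0 and 30.4 (-1.46, standard error 0.39, adjusted p = 0.0415 from edgeR). RNASEH2C, a subunit of ribonuclease H2 and the farthest of these genes on its side, had 270, 172 and 211 against 142, 74.8 and 75.5 (-1.78, standard error 0.43, adjusted p = 0.0395 from edgeR). CTSW and RNASEH2C were thus called lower, 2 of 8 neighbours tested, where 5.54% of all genes tested were called lower.

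Whether these genes were called depended on the scale and on which libraries were used. With library sizes alone, CTSW had a log2 fold change of -0.85 (adjusted p = 0.209 from edgeR) and RNASEH2C of -1.14 (adjusted p = 0.0661 from edgeR), and scaled to all reads they had -0.0047 and -0.31, while the median of all tested genes rose on these scales to 0.74 and 1.58. Without NC replicate 1, NC replicate 2, Si-LIPG replicate 2 or Si-LIPG replicate 3, neither kept an adjusted p under 0.05 (for CTSW 0.105, 0.0615, 0.243 and 0.267, for RNASEH2C 0.0937, 0.0594, 0.243 and 0.253), and without NC replicate 3 CTSW had 0.0603. In these fits without 1 library the log2 fold changes stayed between -1.64 and -1.28 for CTSW and between -2.33 and -1.32 for RNASEH2C, and in the 4 fits that ended both calls no gene of the whole table had an adjusted p under 0.05. FIBP, which lies between CTSW and CCDC85B, had a value above 0 on each of these scales.

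**Figure D5:**
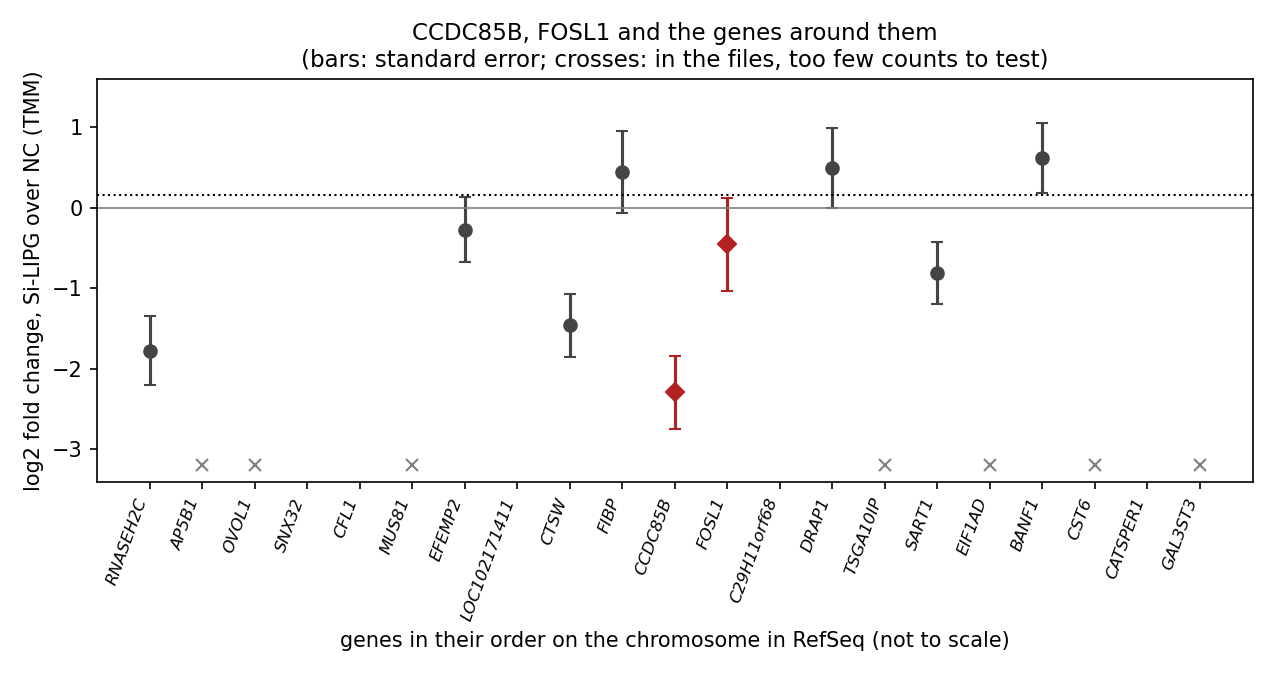
Fitted change (log2 of Si-LIPG over NC, TMM) of CCDC85B, FOSL1 (red diamonds) and the genes on both sides in RefSeq order, with bars for the standard error. Crosses mark genes in the files with too few counts to be tested, names without a mark were not found in the files, and the dotted line is the median of all tested genes (0.16). CCDC85B at -2.29 is flanked by FIBP at 0.45 and FOSL1 at -0.45.

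CCDC85B and FOSL1 overlap or lie within 1 kb of each other in that annotation, FOSB lies as close to LOC108638001, and the other 4 genes have no neighbour so near. Over all genes tested and found once by name, 8.02% of the 2668 with another gene within 1 kb were called lower and 1.74% of the 2528 without. Among those with a mean count of at least 100 the shares were 33.3% of 427 and 8.997% of 289. Closeness to another gene therefore moved with being called lower, its part in the value of CCDC85B was not tested, and, with the strand setting not given, reads of CCDC85B and of any FOSL1 transcript that reaches into it cannot be told apart.

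The genes whose pattern was most like that of CCDC85B over the 6 libraries, among the 755 named genes that averaged at least 100 counts, were ERCC1 (Pearson r = 0.998 of log2 CPM), a DNA repair endonuclease subunit, and COG4 (r = 0.997) and COG1 (r = 0.995), both subunits of a Golgi tethering complex. Each of these 3 has another gene within 1 kb in RefSeq, such as CD3EAP beside ERCC1, SF3B3 beside COG4 and FAM104A beside COG1. Such a neighbour is common: of the genes tested, found once by name and with a mean count of at least 100, 427 had one and 289 did not. For FOSL1 the most alike were C1orf115 (r = 0.935), the mitochondrial complex I gene ND5 (r = 0.909) and SBF2 (r = 0.891). SBF2 has no other gene within 1 kb, ND5 has several, and C1orf115 was not found once by name. FOSL1 and CCDC85B themselves had r = 0.692. The points are the same 6 libraries throughout and share their depth and their scaling, so these values only describe likeness.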

How the data were processed

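RNA-seq of 3 NC and 3 Si-LIPG libraries, grouped by their titles, was analysed. The authors deposited raw counts per gene for each library and, in 1 table, FPKM of those genes, scaled to gene length and to the reads counted on genes. The submitters' processing notes name fastp, HISAT2, SAMtools and HTSeq, without versions, and the build is not given in the sources used here. The 5 rows that name no gene (97.1% to 99.0% of reads) entered neither library sizes nor tests. Ratios of counts to FPKM gave the gene lengths.

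Counts were tested with edgeR 4.0.16 in R 4.3.3 (filterByExpr, TMM, quasi-likelihood test, no covariates), with Benjamini-Hochberg adjustment over 6574 genes. DESeq2 1.42.0, which the study's methods name, and limma 3.58.1 were alternatives. Log2 CPM used a prior count of 2. CPM was computed over the tested genes. Other scalings, filters, a replicate block and leaving out each library were also tried. The procedures were tested on simulated data. Replicate libraries differed beyond sampling noise (chi-square over its degrees of freedom 4.21 to 12.5). The members and lists were chosen with earlier results of these data known. Named by rule are the members, list genes with an adjusted p under 0.05, the 2 genes on each side of CCDC85B and called ones among 10 on each side, and the 3 genes most alike in pattern to CCDC85B and to FOSL1. Other listed genes were named after their values were seen. Neighbours came from RefSeq for ARS1.2, where 13401 names were found once. Protein and promoter sequences were not used here. The values of 1 listed gene are not reported here.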

Additional observations from a re-analysis of the deposited data

How the results depend on the processing

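FOSL2 kept its direction under the 15 alternatives tried, and 0 of the AP-1 factors had an adjusted p under 0.05 under any of them. At an unadjusted p under 0.05 were 3 when counts were scaled to all reads and 1 in each limma fit. Scaled to all reads, the median log2 fold change of all tested genes was 1.58, and 750 of 6574 had an adjusted p under 0.05, all higher. In the limma fits on log2(FPKM + 1) and log2(FPKM + 0.1) this median was 0.76 and 0.86. CCDC85B kept its direction, at -0.76 (log2 fold change) relative to all reads and at -2.75 to -1.73 with single libraries left out. FOSL1 turned positive with library sizes alone (0.19), scaled to all reads (1.10) and in limma on log2(FPKM + 1) (0.21) and on log2(FPKM + 0.1) (0.22), and had -0.78 to -0.11 with single libraries left out. JUN had -0.029 without Si-LIPG replicate 2 (range -0.029 to 0.25) and JUNB had -0.069 without NC replicate 3 (range -0.069 to 0.59). Scaled to all reads, MAP2K1 had 0.66 and CEBPD 0.71, both below the median of 1.58.

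The number of listed genes with an adjusted p under 0.05, 1 in the edgeR fit, was 3 with library sizes alone, 13 scaled to all reads, 2 with DESeq2, 3 under a minimum of 10 counts in every sample, 0 and 0 in the limma fits (18 and 16 at an unadjusted p under 0.05) and 0 to 1 with single libraries left out. For the neighbours, 2 in the edgeR fit, it was 0 with library sizes alone (2 unadjusted), 0 scaled to all reads (3 unadjusted), 1 without a filter, 0 and 0 in the limma fits (3 and 2 unadjusted) and 0 to 2 with single libraries left out. Under the minimum of 10 counts, 714 of all 2757 genes tested had an adjusted p under 0.05, against 3 of 34 listed genes. With the replicate block it was 925 of 6574, against 6 of 57 listed genes. DUSP1 (edgeR adjusted p = 0.0124), CCN2 (0.0147) and SPP1 (0.0139) passed under this minimum, and CCN2 (0.00294), SPP1 (0.00831) and MAP2K1 (0.0122) with the replicate block. The cause of these shifts was not tested.

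Libraries with the same number shared deviations only weakly (r = 0.21, 0.0639 and 0.105), so the numbers were not taken as pairs. With the replicate block, 925 genes had an adjusted p under 0.05 in place of 428, among them 6 listed genes and 0 AP-1 factors. NC 1 and Si-LIPG 1 correlated best with each other, as did NC 3 and Si-LIPG 3 (0.105). NC 2 correlated slightly more with Si-LIPG 3 (0.0890) than with Si-LIPG 2 (0.0639). Over all genes, 0 had an adjusted p under 0.05 without NC replicate 1, NC replicate 2, Si-LIPG replicate 2 or Si-LIPG replicate 3, 123 did with library sizes alone and 750, all higher, scaled to all reads. Depth limits FOSL1, FOS and FOSB, which had at most 28 counts in a library, and also JUNB, which had 13, 11 and 11 in the NC libraries.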
